A study of Mus musculus with 2 samples.

Results

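Translation initiation and elongation factors were taken as the annotated genes whose symbol starts with Eif or Eef followed by a digit, with pseudogene names left out. They numbered 64 of the 15508 annotated mouse genes that had at least 1 read. The annotation holds 69 genes with such names, and the other 5 (Eef1akmt3, Eif2c5, Eif4e1b, Eif4ebp3 and Eif5a2) had no read in either library. The samples were gastrocnemius, a calf muscle, from male B6CASTF1/J mice (offspring of C57BL/6J and CAST/EiJ parents) at 36 days of age, read by long-read RNA sequencing from 2 µg of RNA. There was 1 group of 2 biological replicates and no treated, mutant or older group, so every difference below is between genes, between transcript forms or between the 2 libraries. The labels call the animals male 03 (replicate 1) and male 04 (replicate 2) and give them the same donor entry, so spread between the libraries may be partly technical.

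Initiation factors bring the initiator tRNA and the ribosomal subunits to the start codon of an mRNA, and elongation factors carry the ribosome along it. eIF2 delivers the initiator tRNA and is recharged by eIF2B, eIF3 is the large scaffold on the small subunit, and eIF4E, eIF4G and the helicase eIF4A bind and open the capped end of the mRNA. eEF1A brings aminoacyl-tRNAs to the ribosome, the eEF1B subunits recharge it, and eEF2 moves the ribosome to the next codon. Mammals carry a pair of eEF1A genes: Eef1a1 is used by most cells, while Eef1a2 takes over in adult muscle fibres and neurons.

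The sequences below show places where similar or alternative transcripts differ. They were taken from the GENCODE M21 transcripts of the mm10 assembly and are written 5′ to 3′ on the strand of the gene. Variants of the CAST/EiJ parent were not examined. The first pair shows why long reads of the eEF1A genes can be told apart: their coding sequences differed at 275 of 1383 compared bases (80.1% identity), and the 90-base window with most differences, coding bases 634 to 723 of each, held 29 of them, in capitals. It lies at chr2:181150968-181151057 (minus strand) for Eef1a2 and at chr9:78479673-78479762 (minus strand) for Eef1a1.
Eef1a2: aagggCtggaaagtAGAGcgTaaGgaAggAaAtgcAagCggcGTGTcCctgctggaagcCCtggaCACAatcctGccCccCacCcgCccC
Eef1a1: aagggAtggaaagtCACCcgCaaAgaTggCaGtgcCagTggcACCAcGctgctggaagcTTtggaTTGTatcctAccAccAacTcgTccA

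The second pair shows the opposite case, the helicase gene Eif4a1 on chromosome 11 and its intronless copy Eif4a-ps4 on chromosome 1 (chr1:60703932-60705149, plus strand). How reads were assigned between them was not examined. Over the 1218 bases that aligned, of the 1774 of the Eif4a1 transcript and with 0 gaps, they differed at 1 base, in capitals in this 61-base window.
Eif4a1: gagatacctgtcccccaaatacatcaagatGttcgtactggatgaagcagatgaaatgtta
Eif4a-ps4: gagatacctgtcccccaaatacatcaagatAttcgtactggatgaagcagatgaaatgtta

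The remaining sequences are the coding exons that were kept in some reads and skipped in others in both libraries. They are the 57-base exon (chr15:75897226-75897282) and the 72-base exon (chr15:75900691-75900762) of Eef1d, the 60-base exon of Eif4h (chr5:134624441-134624500) and the 114-base exon of Eif4g2 (chr7:111076280-111076393), all on the minus strand. Each length is a multiple of 3, so keeping or skipping the exon leaves the reading frame downstream as it is.
Eef1d 57-base exon: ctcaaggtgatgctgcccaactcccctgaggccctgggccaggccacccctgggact
Eef1d 72-base exon: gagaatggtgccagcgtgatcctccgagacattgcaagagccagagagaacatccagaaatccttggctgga
Eif4h 60-base exon: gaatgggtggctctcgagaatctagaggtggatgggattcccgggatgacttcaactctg
Eif4g2 114-base exon: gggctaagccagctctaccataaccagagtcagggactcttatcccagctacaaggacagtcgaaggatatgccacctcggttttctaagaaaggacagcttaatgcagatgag

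Levels are in CPM, reads per 1e6 reads of annotated genes, which totalled 1036455 in replicate 1 and 1374068 in replicate 2. Where a gene had no read, a level of up to 2.89 CPM (replicate 1) or 2.18 CPM (replicate 2), the worth of 3 reads, remains possible by counting error alone. All 5 muscle fibre markers (Ckm, Acta1, Myh4, Tnnc2 and Actn3) were among the 14 highest genes, and the pan-leukocyte gene Ptprc, the heart genes Nppa and Myl7 and the liver genes Alb, Apoa1 and Ttr had no read. The heart gene Myh6 had 1 read in replicate 1, and the immune gene Lyz2 had 54 and 55 reads. Of the neuron genes, Syn1 and Snap25 had no read and Rbfox3 had 3 in replicate 2. Markers of other cells differed between the libraries: the sum of 4 fibroblast markers was 3175 CPM in replicate 1 against 793 CPM in replicate 2, that of 4 Schwann cell markers 938 against 341 CPM, and that of 4 adipocyte markers 140 against 379 CPM. Most of the fibroblast sum came from Col1a1 (1306 and 254 CPM) and Col3a1 (1500 and 337 CPM). Not every marker followed its sum: Pdgfra (fibroblast) had 3.86 and 5.09 CPM, Plin1 (adipocyte) 2.89 and 0.73 CPM, and S100b (Schwann cell) 8.68 and 8.01 CPM. The sums of 4 endothelial and of 4 immune markers were 27.0 against 16.7 CPM and 61.7 against 42.9 CPM. Their part in the differences between the libraries given below was not tested. In whole tissue, fewer cells of a type and less RNA per cell cannot be told apart.

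The 64 factors together took 6766 reads (0.653% of gene reads) in replicate 1 and 7851 reads (0.571%) in replicate 2, a mean of 6121 ± 576 CPM (SD, n = 2, as for every mean below). Their levels differed widely. At the top stood Eif1, which scans for the start codon, with 765 CPM in replicate 1 and 1022 CPM in replicate 2. It was followed by Eif5a, the hypusine-carrying factor that helps stalled ribosomes, with 550 and 475 CPM, and by Eef1g, the gamma subunit of the eEF1B exchange complex, with 416 and 408 CPM. At the bottom, the eIF2 alpha kinase genes Eif2ak4 (2 reads and none) and Eif2ak2 (none and 3 reads) each had reads in only 1 library. Between these ends, 12 members were above 100 CPM in both libraries and 31 had means under 50 CPM.

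**Figure D1:**
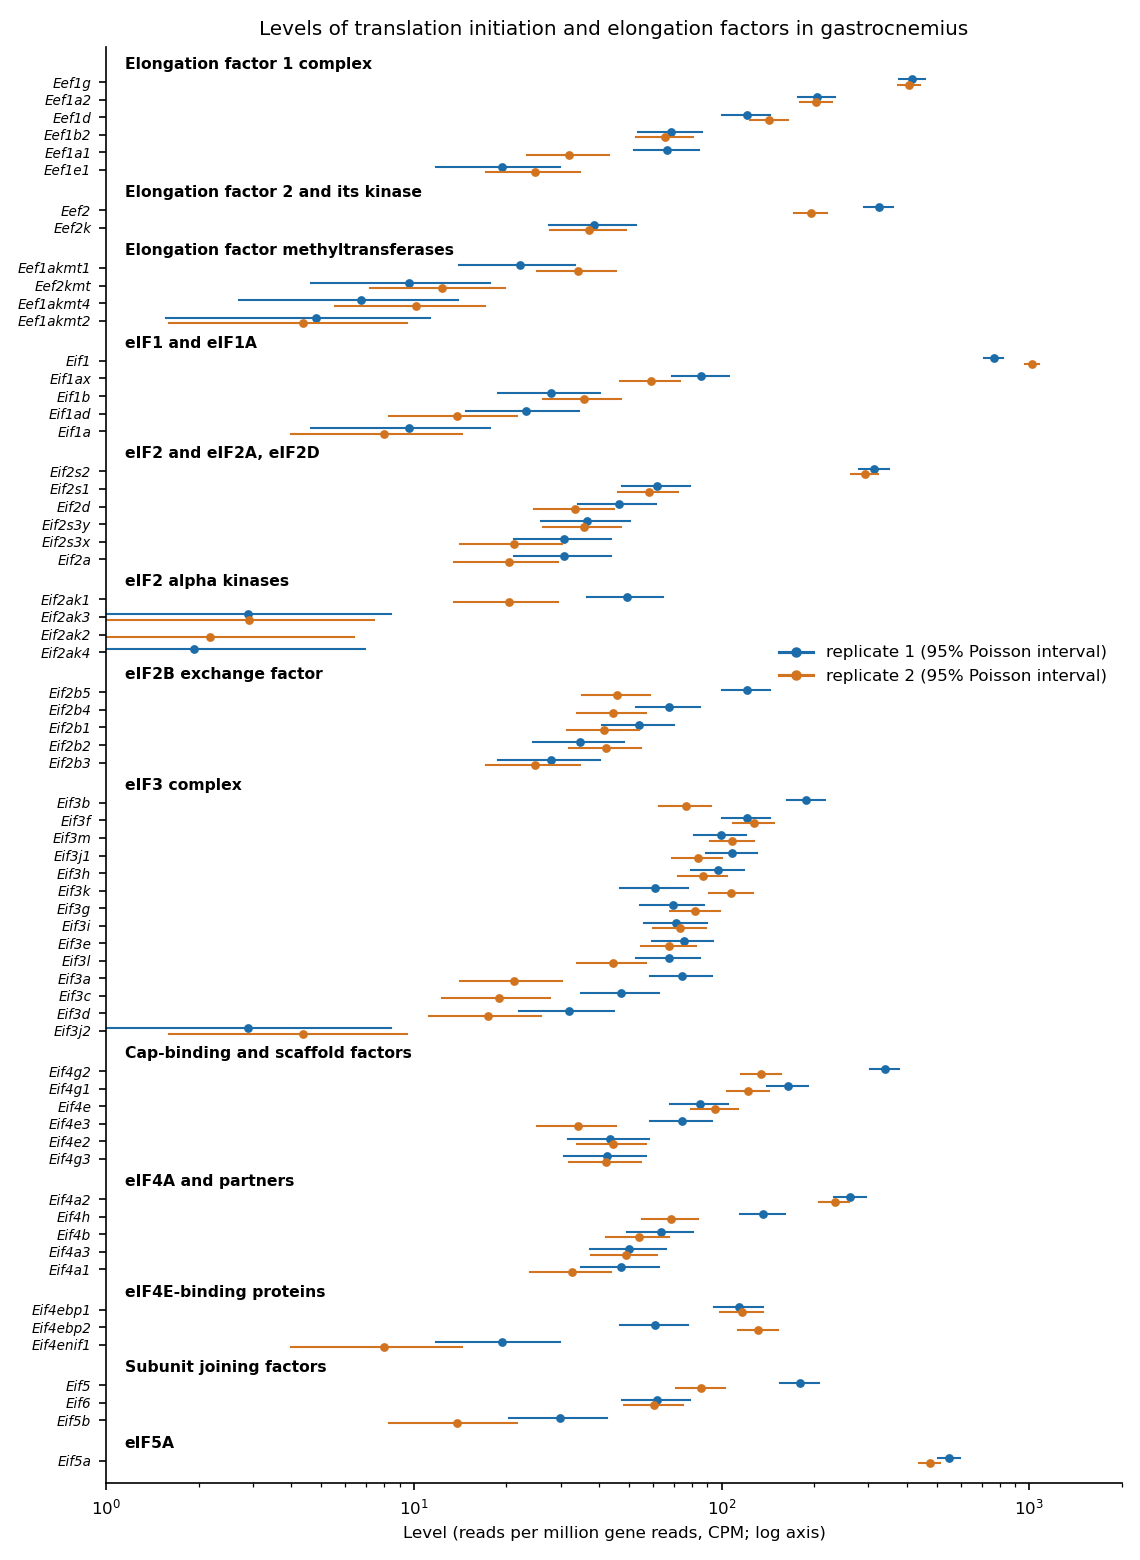
Level of each of the 64 factors in CPM (log axis) by functional group, with replicate 1 in blue and replicate 2 in orange, and bars for the exact Poisson 95% interval of each count, cut off at 1 CPM; a count of 0 is not drawn. Eif1, Eif5a and Eef1g are highest, the eIF3 subunits fill the middle of the range, and Eif2ak2 and Eif2ak4 each have a point for only 1 library.

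Among elongation factors, the muscle paralogue Eef1a2 (chr2:181147653-181157014, minus strand) exceeded Eef1a1 (chr9:78478449-78489151, minus strand) in both libraries. Eef1a2 had 211 reads and Eef1a1 had 69 in replicate 1, and they had 279 and 44 in replicate 2. The ratio was 3.06 (exact 95% interval 2.32 to 4.07) in replicate 1 and 6.34 (4.60 to 8.93) in replicate 2, so neither interval reached equality and the intervals of the 2 libraries did not overlap. On the log2 scale the mean was 2.14 ± 0.74. Divided by the length of each gene's leading transcript (2084 bases for Eef1a2 and 1794 for Eef1a1), the log2 ratio per kilobase averaged 1.92 ± 0.74. Eef1a2 made up 75.4% of eEF1A reads in replicate 1 (Wilson 95% interval 70.0 to 80.0) and 86.4% in replicate 2 (82.2 to 89.7).

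The level of Eef1a2 was 204 CPM in replicate 1 and 203 CPM in replicate 2, while Eef1a1 was at 66.6 and 32.0 CPM. Which of the 2 genes moved depended on the scaling: the log2 ratio of replicate 1 over replicate 2 was 0.00 for Eef1a2 and 1.05 for Eef1a1 in CPM, -0.28 and 0.76 with TMM scaling and -0.40 and 0.64 with DESeq2 size factors. Eef1a1 passed the 2-fold rule given below in CPM and under neither of these scalings. The 2 × 2 table of the reads of both genes in both libraries gave a two-sided Fisher exact p of 0.000764, unadjusted, for these 2 libraries. The summed levels of the fibroblast and of the Schwann cell markers above were also lower in replicate 2, and their part in the Eef1a1 difference was not tested.

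Reads of Eef1a1 were often incomplete. The deposited models are sorted by splice chain, and the annotated, new-combination and new-junction classes, which hold a chain that is not a mere part of an annotated transcript, are called full-length classes here. They held 82.0% of Eef1a2 reads in replicate 1 and 64.2% in replicate 2, against 52.2% and 50% of Eef1a1 reads. With full-length classes alone, Eef1a2 stood above Eef1a1 by a mean log2 ratio of 2.64 ± 0.54. The mouse genome holds many processed copies of Eef1a1: 15 annotated loci matched its transcript over at least 300 bases at 90.6% to 98.6% identity. None of them had a read of its own in either library. Unspliced reads of any gene at those loci numbered 10 and 9, and adding them all to Eef1a1 left a mean log2 ratio of 1.91 ± 0.69. Over all members, annotated pseudogene loci matched at 90% identity or more for 24 of the 64, and 8 of the 83 loci had reads of their own. For Eif1, which has 19 such loci, those reads numbered 2 and 5.

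The transcript of Eef1a2 began at either of a pair of first exons. In 19 reads of replicate 1 and 15 of replicate 2, the second exon was joined to an unannotated first exon whose donor site (chr2, base 181155949) lies 775 bases downstream of the annotated donor (base 181156724). The annotated first exon had 145 and 154 reads, so the unannotated one made up 11.6% (7.54 to 17.4) and 8.88% (5.45 to 14.1) of the reads that held either. The annotated start codon lies in the second exon, so both forms hold it. The unannotated exon was not examined for an earlier start codon.

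The eEF1B subunits that recharge eEF1A were headed by Eef1g at 412 ± 5.86 CPM. Eef1d, the delta subunit, had 121 and 143 CPM, and Eef1b2 and Eef1e1 (a protein of the aminoacyl-tRNA synthetase complex) had means of 67.0 and 22.0 CPM. Eef1d was the member with the most varied splicing. Its most abundant transcript was not in the annotation: a 9-exon combination of annotated splice sites held 47.2% of its reads in replicate 1 and 49.0% in replicate 2. An acceptor site that lengthens another exon by 3 bases was used in 95.5% and 95.4% of reads. Both the 72-base and the 57-base exon were in 55.7% and 59.1% of the 115 and 181 reads that crossed the region, the 72-base exon alone in 32.2% and 30.4%, neither in 7.83% and 5.52%, and the 57-base exon alone in 4.35% and 4.97%. The order of the 4 forms was the same in both libraries, and each form's Wilson intervals overlapped between them.

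Eef2, which translocates the ribosome, had 337 reads (325 CPM) in replicate 1 and 268 reads (195 CPM) in replicate 2. Its inhibitory kinase Eef2k had 38.6 and 37.1 CPM. Much of the Eef2 signal was partial: full-length classes held 45.1% of its reads in replicate 1 and 20.1% in replicate 2, and single-exon reads made up 13.1% and 47.0%. Of the genes for methyltransferases that modify lysines of eEF1A or eEF2, 4 had reads, from 28.2 ± 8.50 CPM for Eef1akmt1 down to 4.60 ± 0.32 CPM for Eef1akmt2.

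Among the start codon factors, Eif1 had 793 reads in replicate 1 and 1404 in replicate 2, which were 27.3 (18.9 to 41.1) and 28.7 (21.6 to 38.9) times those of its paralogue Eif1b. Per kilobase the mean log2 ratio of this pair was 4.45 ± 0.05, the tightest of the pairs compared, and the closeness in 2 libraries is a description. X-linked Eif1ax, which encodes eIF1A, exceeded Eif1a by 8.90 (4.62 to 19.2) and 7.36 (3.91 to 15.3) times in reads, with a mean log2 ratio of 2.16 ± 0.19 per kilobase.

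The 3 subunits of eIF2 were unequal in reads. Eif2s2, the beta subunit, had 314 and 292 CPM, and the alpha subunit gene Eif2s1, whose product carries the phosphorylation site of the stress kinases, averaged 59.99 ± 2.49 CPM. The gamma subunit came from the X and the Y chromosome in these males: Eif2s3y had 38 and 49 reads and Eif2s3x had 32 and 29. The ratio of Eif2s3y over Eif2s3x reads was 1.19 (0.722 to 1.96) in replicate 1, an interval that held equality, and 1.69 (1.05 to 2.77) in replicate 2. Per kilobase, the log2 ratio of this pair was 1.24 in replicate 1 and 1.75 in replicate 2. Single-exon reads were 2.63% and 6.12% of Eif2s3y, against 28.1% and 55.2% of Eif2s3x, and with full-length classes alone the Y copy stood above the X copy by a mean log2 ratio of 1.40 ± 0.72.

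Of the 4 kinases that phosphorylate eIF2 alpha, Eif2ak1, the heme-regulated kinase, had 51 and 28 reads (49.2 and 20.4 CPM). Eif2ak3, the kinase of the endoplasmic reticulum, had 3 and 4 reads, and Eif2ak2 and Eif2ak4 had at most 3 in a library. These 3 genes were at or near the detection limit, so nothing about their order could be read. The 5 eIF2B genes, the exchange factor that phosphorylated eIF2 inhibits, ranged from 26.4 ± 2.29 CPM for Eif2b3 to 83.2 ± 52.9 CPM for Eif2b5, the catalytic epsilon subunit, whose spread came from 121 CPM in replicate 1 against 45.8 CPM in replicate 2.

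All 14 eIF3 genes were detected and together made 1114 CPM in replicate 1 and 921 CPM in replicate 2. Eif3b, a core scaffold subunit, had the highest mean (188 and 76.4 CPM), followed by Eif3f (121 and 127 CPM) and Eif3m (99.4 and 108 CPM). By mean, the other large core subunits Eif3a (74.3 and 21.1 CPM) and Eif3c (47.3 and 18.9 CPM) were among the lowest of the complex. In replicate 1 alone, Eif3a stood in the middle, above Eif3i (71.4 CPM), Eif3g (69.5 CPM) and Eif3l (67.5 CPM). Eif3j1 and Eif3j2 encode the loosely bound j subunit. Their transcripts matched at 99.4% identity over 2379 bases, all of Eif3j2 and part of the 5413 bases of Eif3j1. Eif3j1 had 112 and 115 reads, while the single-exon gene Eif3j2 had 3 and 6, so the intronless copy took few of the reads, and reads without a junction could be placed at either gene.

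The cap-binding protein gene Eif4e had 84.9 and 95.3 CPM. Reads of Eif4e were 1.96 (1.35 to 2.87) and 2.15 (1.57 to 2.96) times those of Eif4e2, a repressor-like cap binder. Per kilobase, the log2 ratio of Eif4e over Eif4e2 was 0.62 in replicate 1 and 0.76 in replicate 2. Against Eif4e3 the ratio of reads was 1.14 (0.832 to 1.57) in replicate 1, an interval that held equality, and 2.79 (1.98 to 3.98) in replicate 2. Per kilobase, the log2 ratio of Eif4e over Eif4e3 was 1.02 and 2.30, so on that scale Eif4e was higher in both libraries. Eif4e2 used either of a pair of first exons whose donor sites lie 476 bases apart, of which one had 17 and 22 reads and the other 26 and 15. The share of the first of these was 39.5% (26.4 to 54.4) and 59.5% (43.5 to 73.7), so which of the 2 was used more changed between the libraries within overlapping intervals.

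Of the scaffold genes, Eif4g2, which lacks the eIF4E site and serves cap-independent initiation, had 339 CPM in replicate 1 and 135 CPM in replicate 2, and Eif4g1, the canonical scaffold, had 164 and 122 CPM. Reads of Eif4g2 were 2.06 (1.71 to 2.49) times those of Eif4g1 in replicate 1 and 1.10 (0.889 to 1.37) times in replicate 2, an interval that held equality. Per kilobase, the log2 ratio of Eif4g2 over Eif4g1 was 0.49 in replicate 1 and -0.41 in replicate 2, so on that scale neither gene was higher in both. With full-length classes alone the ratio was 2.59 ± 0.16 in favour of Eif4g2, these classes holding 77.8% and 57.3% of Eif4g2 reads against 24.7% and 11.3% of Eif4g1 reads. Eif4g1 exceeded Eif4g3 by 3.86 (2.76 to 5.51) and 2.90 (2.14 to 3.97) times in reads. The 114-base exon of Eif4g2 was kept in 89.6% (85.9 to 92.5) and 81.4% (74.3 to 86.9) of the reads that crossed it, and the gene's leading transcript is the 1 annotated transcript that holds it. Eif4g1 used an acceptor site 3 bases further upstream in 43.5% (33.5 to 54.1) and 31.6% (19.1 to 47.5) of reads.

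The helicase pair was unequal as well, with Eif4a2 above Eif4a1 in both libraries. Eif4a2 had 271 reads and Eif4a1 had 49 in replicate 1, and they had 320 and 45 in replicate 2, ratios of 5.53 (4.07 to 7.66) and 7.11 (5.19 to 9.95). The mean log2 ratio was 2.65 ± 0.26, and 2.33 ± 0.26 per kilobase. The copy Eif4a-ps4 shown above had 30 and 31 reads, against 49 and 45 of Eif4a1. If all of them came from Eif4a1, the mean log2 ratio would be 1.93 ± 0.21. Eif4a2 had a 3-base longer exon through an alternative acceptor in 29.1% (23.8 to 35.0) and 27.9% (22.7 to 33.8) of reads. The third helicase gene, Eif4a3 of the exon junction complex, had 49.5 ± 1.00 CPM.

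Eif4h and Eif4b encode partners that stimulate eIF4A. Eif4h had 136 and 68.4 CPM, and its 60-base exon was kept in 13.6% (8.67 to 20.7) and 19.7% (12.3 to 30.04) of reads, so the shorter form was the main one in both libraries. Eif4b had 63.7 and 53.9 CPM.

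The eIF4E-binding proteins hold eIF4E away from eIF4G until mTOR phosphorylates them. Eif4ebp2 had 63 and 181 reads (60.8 and 132 CPM), and 90.5% and 98.3% of them were unspliced. Nearly all of these, 57 and 176 reads, belonged to a single-exon group that leads the gene and whose most abundant model, of 2747 bases, ends at the annotated 3′ end of Eif4ebp2 (chr10:61428491-61431237, minus strand). Eif4ebp1 had 118 and 160 reads (114 and 116 CPM), of which 99.2% and 99.4% were in full-length classes. By all reads, Eif4ebp2 over Eif4ebp1 was 0.534 (0.387 to 0.731) in replicate 1 and 1.13 (0.909 to 1.41) in replicate 2. Per kilobase of the leading full-length models, the log2 ratio of all reads was -2.44 in replicate 1 and -1.36 in replicate 2. By full-length classes the mean log2 ratio was -5.01 ± 1.02, so how large Eif4ebp2 appears depends on whether unspliced reads count.

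**Figure D2:**
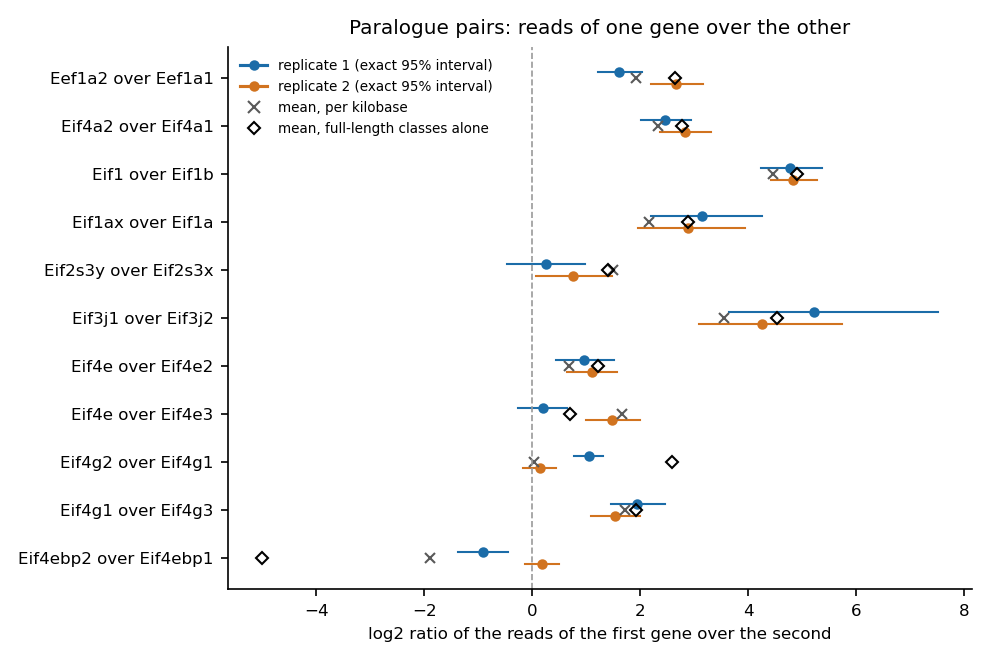
log2 ratio of the reads of the first named gene over the second for 11 paralogue pairs; points and bars are each library with its exact 95% interval, crosses are means per kilobase and open diamonds are means with full-length classes alone. Eef1a2 over Eef1a1, Eif4a2 over Eif4a1 and Eif1 over Eif1b are above 0 in every version, while Eif4g2 over Eif4g1 and Eif4ebp2 over Eif4ebp1 move with the reads that are counted.

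For the joining of the ribosomal subunits, Eif5, the GTPase activator of eIF2, had 179 and 85.9 CPM, Eif6, which keeps the large subunit from joining early, had 61.7 and 60.4 CPM, and Eif5b, the GTPase that joins the subunits, had 29.9 and 13.8 CPM. Eif5a had 570 and 653 reads, and its paralogue Eif5a2 had none. A 94-base exon, not coding over its whole length in any annotated transcript, was kept in 6.28% (4.53 to 8.65) and 7.65% (5.79 to 10.1) of Eif5a reads. A less used first exon made up 3.58% (2.28 to 5.59) and 3.48% (2.24 to 5.37).

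By the rule that both forms needed at least 5 reads in each library, 11 splice choices were found in 8 of the 64 genes: 5 exons that were kept or skipped, 3 pairs of acceptor sites up to 30 bases apart and 3 pairs of first exons. In each of the 11 the Wilson intervals of the 2 libraries overlapped, and the widest gap was that of the first exons of Eif4e2.

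**Figure D3:**
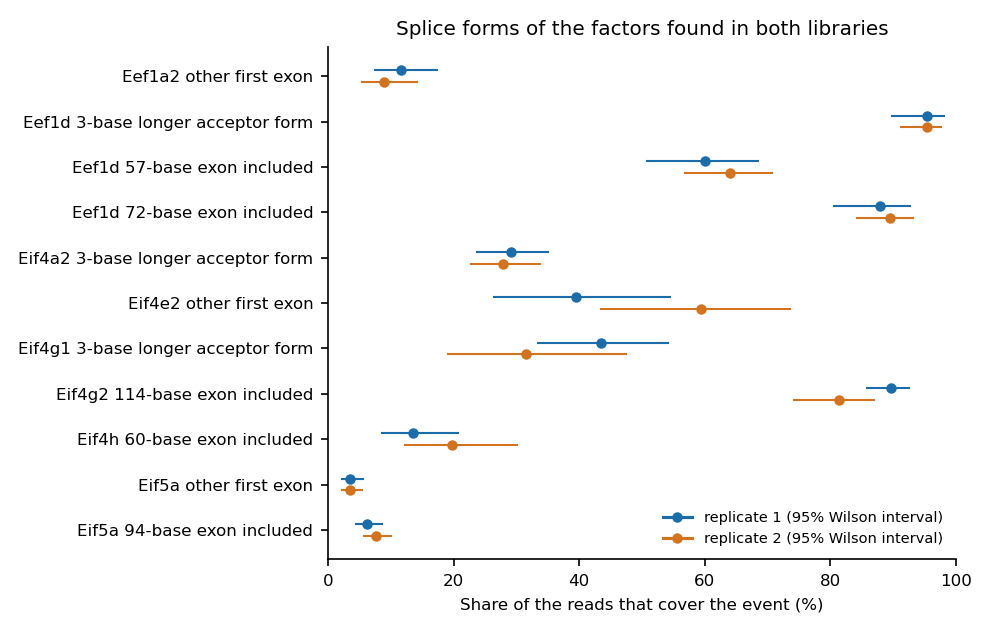
Share of the reads covering each of 11 splice choices that hold the named form, in percent, with 95% Wilson intervals for replicate 1 (blue) and replicate 2 (orange). The 57-base exon of Eef1d is kept in 60.0% and 64.1% of reads, the 60-base exon of Eif4h in 13.6% and 19.7%, and the first exon choice of Eif4e2 has the widest gap between the libraries.

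Completeness of the models varied between the factors and between the libraries. Over the 53 members with at least 20 reads in each library, the share of reads in full-length classes had a median of 90.2% in replicate 1 (range 9.52% to 100%) and 82.4% in replicate 2 (range 1.66% to 99.4%). It was lower in replicate 2 for 48 of the 53. Over all annotated genes, these classes held 85.5% and 75.7% of reads. Some members with long transcripts had low shares: Eif4g3 had 15.9% and 13.8%, Eef2k 60.0% and 17.6% and Eif4b 57.6% and 25.7%. Others did not: Eif1ax (5172 bases) had 95.5% and 87.7% and Eif3j1 (5413 bases) had 90.2% and 84.3%. These examples were chosen after their values were seen, and a relation to length was not tested.

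**Figure D4:**
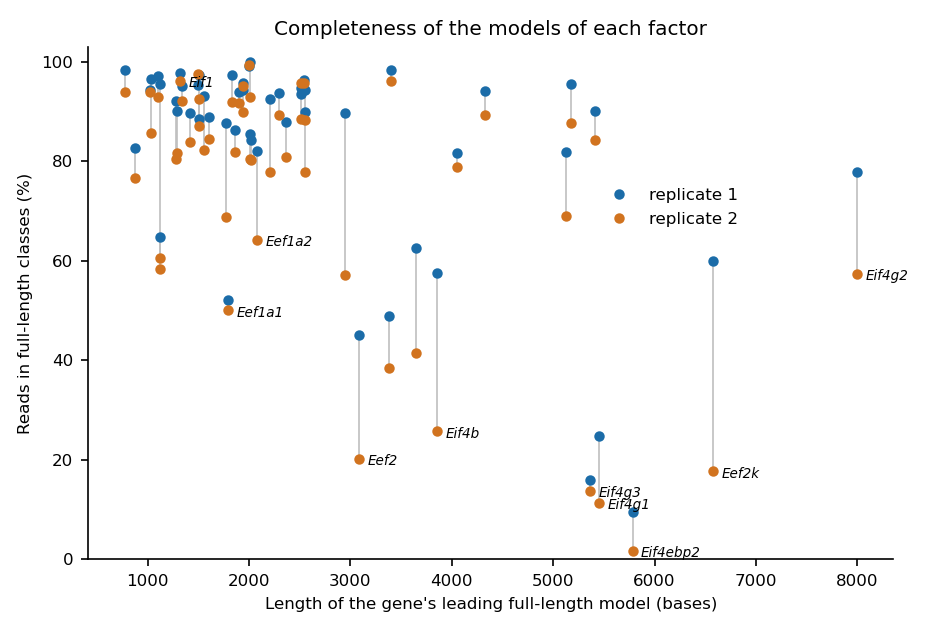
Percent of each factor's reads in full-length classes against the length of its leading full-length model in bases, for the 53 members with at least 20 reads in each library; a line joins replicate 1 (blue) and replicate 2 (orange) of a gene. Most short transcripts are above 80%, Eef1a1 is near 50% in both libraries and Eif4ebp2 is lowest.

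To compare isoform use between the libraries, the reads of each gene's leading isoform were set against its other reads by Fisher's exact test (two-sided), for genes that had 50 or more reads in both. A gene was called where the p-value, adjusted by Benjamini-Hochberg over the genes tested, was below 0.05 and the shares differed by 10 percentage points or more. Of 34 members tested, 6 were called (17.6%), against 30.5% of the 1834 genes tested. The annotated leading transcript had a smaller share in replicate 2 in 5 of them: Eif3b (86.2% in replicate 1 and 54.3% in replicate 2, adjusted p = 3.57e-08, exact), Eif4b (54.5% and 24.3%, adjusted p = 0.0012, exact), Eef2 (42.7% and 19.4%, adjusted p = 8.06e-09, exact), Eif4g2 (75.2% and 51.9%, adjusted p = 6.39e-07, exact) and Eef1a2 (67.3% and 53.4%, adjusted p = 0.00768, exact). In Eif4g1 the leading form was a single-exon group at the 3′ end, with 24.7% and 44.0% (adjusted p = 0.00103, exact). With full-length classes alone, 0 of 27 members were called by the same exact test, and 3 had an unadjusted p under 0.05. Calls were rare among all genes in that setting as well, at 20 of the 1443 tested.

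To compare levels between the libraries, the counts of each gene in both were tested given the library totals (exact conditional binomial test, two-sided), adjusted by Benjamini-Hochberg over the 8339 genes whose reads summed to 10 or more. Calls needed an adjusted p below 0.05 and a difference of 2-fold or more. The test compares these 2 libraries, not conditions. Of the 60 members tested, 10 (16.7%) were called higher in replicate 1, against 12.9% of all genes, and 1 (1.67%) higher in replicate 2, against 5.76% of all genes. The median log2 ratio (replicate 1 over replicate 2) was 0.17 over the 60 members and 0.28 over all genes tested.

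The members called higher in replicate 1 came from several steps of translation. The largest difference was that of Eif3a, with 77 reads in replicate 1 and 29 in replicate 2 (log2 ratio 1.80, adjusted p = 1.36e-08, exact binomial). Of the other eIF3 core subunits, Eif3b had 195 and 105 reads (1.30, adjusted p = 5.48e-13, exact) and Eif3c had 49 and 26 reads (1.31, adjusted p = 0.00104, exact), so 3 of the 13 eIF3 genes tested were called, and the complex had a median of 0.16. Eif2b5 had 125 and 63 reads (1.39, adjusted p = 2.19e-09, exact). Eif4g2 had 351 and 185 reads (1.33, adjusted p = 7.78e-24, exact). Eif2ak1 was called at 1.26 (adjusted p = 0.001, exact), Eif4e3 at 1.11, Eif5b at 1.10, Eif5 at 1.06 and Eef1a1 at 1.05, with adjusted p between 4.84e-09 and 0.0342 by the same exact test. Eif4ebp2 was the 1 member called higher in replicate 2 (log2 ratio -1.11, adjusted p = 4.26e-07, exact), and this call rests on the unspliced reads described above. The shortest leading transcript among the 10 called higher in replicate 1 had 1794 bases and their median was 3717, while the 60 members tested had a median of 2055.

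The calls depended on how the libraries were scaled. TMM scaling moved the median log2 ratio of all genes to -0.01, and the split of all calls became 580 higher in replicate 1 and 890 in replicate 2, in place of 1075 and 480. Under it 7 members were called: Eif2b5, Eif3a, Eif3b, Eif3c and Eif4g2 higher in replicate 1, and Eif3k and Eif4ebp2 higher in replicate 2. After a trend on transcript length was removed, Eif3a (log2 ratio 1.20) and Eif4ebp2 (-1.69) were left of the 60 members tested. Calls over all 8120 genes tested in that setting also fell, to 285 higher in replicate 1 and 476 higher in replicate 2.

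**Figure D5:**
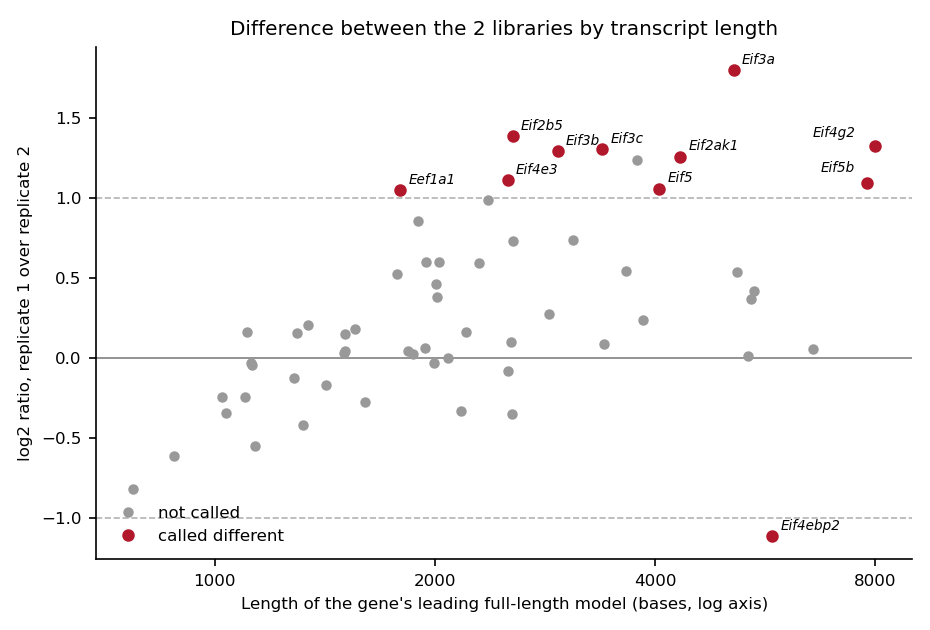
log2 ratio of replicate 1 over replicate 2 against the length of the leading full-length model in bases (log axis) for the 60 factors tested, with called members in red and dashed lines at 2-fold. The 10 members called higher in replicate 1 have leading transcripts of 1794 bases or more, and Eif4ebp2 is the only one called lower.

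Related genes of the translation machinery were tested in the same way, beside the 12.9% and 5.76% of all genes called higher in replicate 1 and in replicate 2 and the median log2 ratio of 0.28 of all genes. Of 22 cytosolic aminoacyl-tRNA synthetase and complex genes, 7 passed the test as higher in replicate 1 and none as higher in replicate 2, and their median log2 ratio was 0.56. Aimp2 (147 ± 36.7 CPM) and Eprs (111 ± 80.6 CPM) had the highest means, and the largest ratios among those called were those of Cars (1.96), Eprs (1.63) and Lars (1.51). Of 5 genes of poly(A)-binding proteins and their partners, Paip2 (219 and 441 CPM) was called higher in replicate 2, and Pabpc4 had 121 and 141 CPM. Of 15 tested genes of the mTOR pathway, which phosphorylates the eIF4E-binding proteins, 3 were higher in replicate 1 (Mknk2, Tsc2 and Larp1, at log2 ratios of 1.75, 1.22 and 1.10) and 2 higher in replicate 2 (Tsc1 and Mlst8, at -2.20 and -1.68). Tsc1 and Mknk2 had the highest means of that list, 366 ± 333 and 305 ± 234 CPM.

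Of 6 tested targets of the integrated stress response, which eIF2 alpha phosphorylation starts, Chac1 was called higher in replicate 1 (log2 ratio 1.19) and Ddit3 and Atf5 higher in replicate 2 (-1.39 and -1.34), while Atf4, the transcription factor of the response, had 47.3 and 53.9 CPM. Of 5 tested termination and recycling factors, Gspt1 was called (1.70), and Mcts1 and Etf1 had the highest means (50.1 ± 13.5 and 42.9 ± 10.3 CPM). The 6 mitochondrial factors, headed by Tufm (62.5 ± 15.3 CPM) and Gfm1 (53.5 ± 21.2 CPM), and the 4 hypusine and selenocysteine factors, headed by Dohh (44.0 ± 3.60 CPM) and Dhps (13.1 ± 2.00 CPM), had no call by the exact binomial test. Calls of related genes are given in CPM alone. TMM scaling moves all genes alike, and it took Eif2ak1 from 1.26 to 0.97, below the 2-fold rule. Tsc2, Chac1, Tars and Larp1 had smaller ratios in CPM (1.22, 1.19, 1.13 and 1.10), so they too would not be called. DESeq2 size factors took Eif2b5 from 1.39 to 0.98, so the call of Aars (1.38) would be lost as well. Genes called higher in replicate 2 would keep a 2-fold difference.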

How the data were processed

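Long-read RNA sequencing libraries of gastrocnemius were deposited as read counts per transcript model. The authors' counts are raw and not pooled, in 1 table per library that also lists model lengths and numbers of exons. Per the labels, the assembly is mm10. Per the deposited annotation files, models were named by TALON on an Ensembl and HAVANA annotation whose identifiers match GENCODE M21. No aligner or TALON version is named in the labels or headers.

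Reads of all models of an annotated gene were added up, spike-ins were left out, and 0 columns of other samples were present. CPM used the totals of those counts. One read is 1 molecule read along its length, so CPM was not divided by length, and levels of different genes are also compared per kilobase of the leading full-length model. With 1 library on each side edgeR's quasi-likelihood test has no residual degree of freedom, so the exact conditional binomial test with 0.5 reads added for log2 ratios was used. TMM came from edgeR 4.0.16 and size factors from DESeq2 1.42.0 (R 4.3.3), and tests from SciPy 1.17.1. The length trend was fitted by lowess (fraction 0.3) to genes of 50 or more reads. Copies were found with BLAST 2.17.0 at 90% identity over at least 300 bases. Models were matched between libraries by splice chain, and single-exon models that overlap within a gene were treated as 1 form. Both per-gene tests were tested on simulated data that held set changes and counting error alone. These data held no difference in completeness between the libraries, so they cannot show how the tests behave under one. Reads carry no molecular identifiers in these tables, so intervals at 95% cover counting error only.

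The members and lists were chosen with earlier results of these data known. Named members were Eef1a1 and Eef1a2, the 25 with the highest mean CPM, all those called, and the highest of any functional group without one; from a related list, its 2 highest genes and up to 3 called genes with the largest ratios. Other members named were chosen after their values were seen, as paralogues or for completeness of a complex. Strand use in counting is not stated for these tables, and Eif1ad and Banf1, Eif2ak1 and Aimp2, Eef2kmt and Alg1, Eif5b and Rev1, Eif3j1 and Spg11, and Eef1akmt4 and Gm49333 overlap in the annotation, so reads of these genes are uncertain.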

Additional observations from a re-analysis of the deposited data

Results flagged for a closer look

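Reads outside the 64 counted genes were found at some of their copies and on the opposite strand, above the 3 reads that a count of 0 allows. Eif4a-ps4, which differs from Eif4a1 at 1 aligned base, had 30 reads in replicate 1 and 31 in replicate 2. Gm4366, a processed pseudogene of Eef1g, had 4 and 20 reads. Models on the strand opposite to a factor had more than 3 reads in both libraries at 7 genes: Eif4e (7 in replicate 1 and 39 in replicate 2), Eif4g3 (8 and 27), Eif4g2 (5 and 17), Eif3h (4 and 15), Eif3a (5 and 5), Eif3b (5 and 4) and Eif3k (4 and 4). Opposite all members together there were 66 and 218 reads.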

How the results depend on the processing

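The log2 ratio of Eef1a2 over Eef1a1 was 2.14 on average, and 1.61 and 2.66 in the single libraries. It was 2.64 with full-length classes, 2.42 with annotated models, 1.92 per kilobase and 1.91 with copies added. Each of these 4 lay within 1 SD (0.74) of 2.14. That SD is the spread of the same 2 libraries, so it is a wide measure, and the single-library values lie within it by construction. Adding loci named as Eef1a1 pseudogenes gave no value, since the annotation has none by that name. The summed level of the members (6121 CPM) was 5714 and 6528 CPM in single libraries, 5830 when scaled to all mouse reads and 6182 CPM with full-length classes. The 11 members called between the libraries became 7 with TMM scaling (1470 of all genes in place of 1555), 4 with DESeq2 size factors (1458 of all genes; Eif3a higher in replicate 1, and Eef1akmt1, Eif3k and Eif4ebp2 higher in replicate 2) and 2 after removal of the length trend, which also took the count over all genes to 761; it was 10 with no filter (1403 of all genes) and 10 with full-length classes (1631 of all genes), 6 of those 10 being among the 11. Called log2 ratios kept their sign in 54 of 54 such comparisons and their call in 26. Eif4ebp2 with full-length classes is not among the 54, since its 6 and 3 reads were too few for the test. There it had 6.77 CPM of full-length reads in replicate 1 and 2.89 in replicate 2, the opposite direction to its call. The 6 leading isoforms called became 10 of 53 at 20 reads or more (808 of 3691 genes). With full-length classes, 0 of 27 members were called by the Fisher exact test (3 at an unadjusted p under 0.05). Over all genes the calls were 20 of 1443, in place of 559 of 1834. Partial reads are left out by construction in that setting. Apart from that, the cause was not tested. Mean CPM of 17 of 33 named members moved by less than 1 SD with full-length classes; these alternatives and those on copies and pairs were chosen after seeing the data. No paired analysis was possible because the design holds 1 group. Counts under about 20 reads limit what can be said of the 3 low eIF2 alpha kinases and Eif3j2.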
